A study of Mus musculus with 6 samples.

Results

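The creatine kinase system and myoglobin were examined here as 7 genes, taken by symbol from the 34945 gene symbols of the count table: the creatine kinases Ckm, Ckmt2 and Ckb, the adenylate kinase Ak1, the creatine transporter Slc6a8, the creatine synthesis enzyme Gatm and the oxygen-binding protein Mb. All 7 were among the 13485 genes with enough counts to be tested. RNA came from left ventricular myocardium of 3 wild-type mice and 3 mice with a 4SA-Rad knock-in allele, all given as strain C57BL/6N. Rad, the Rrad product, holds back cardiac calcium channels until protein kinase A phosphorylates it, and in 4SA-Rad the phosphorylated serines are replaced by alanine. The series concerns this phosphorylation in the response to fight-or-flight signals. The single comparison the design allows is knock-in against wild-type. The labels used here give no age, sex, zygosity or treatment, and they name no agent given to either group. Y-linked transcripts came to between 2790 and 3708 counts in every library, as in male mice.

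Heart muscle stores high-energy phosphate as phosphocreatine. The mitochondrial creatine kinase makes it from ATP at the site of oxidative phosphorylation, and cytosolic creatine kinases turn it back into ATP beside the myofilaments and the calcium pump. Cardiomyocytes take up creatine through a transporter, whereas its synthesis takes place mainly in kidney and liver, and adenylate kinase recovers ATP from ADP in parallel. Myoglobin stores oxygen and carries it towards the mitochondria.

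Library totals ran from 24761124 to 32669182 estimated counts in wild-type and from 35259459 to 39627397 in knock-in mice, with all knock-in libraries the deeper ones. Mitochondrial-genome transcripts made up 53.1% to 56.9% of each library. The 14 cardiomyocyte markers, among them Myh6, Tnnt2 and Actc1, were all detected and summed to between 54556 and 57760 counts-per-million (CPM, scaled by TMM, a factor that aligns libraries on the bulk of their genes), with overlapping ranges. Of the 14, 1 was called, Fabp3, as higher in knock-in (edgeR adjusted p = 0.0176), against 4% of all tested genes. Its call held in 3 of 6 leave-one-out fits. Values did not overlap between genotypes for 6 markers higher and 1 lower in knock-in, against 14.3% and 15.1% of all tested genes. Rrad itself came to 30.0 to 44.7 CPM in wild-type mice and 27.0 to 56.8 CPM in the knock-in mice (edgeR adjusted p = 0.554), and gene totals do not separate the alleles, so its level does not check the genotype labels. Of 7 genes listed as variable between substrains 6 were tested and 4 called, against 9.01% of all tested genes. Crb1 (edgeR adjusted p = 0.345) and Cyfip2 (edgeR adjusted p = 0.0547) did not pass. The called genes Nnt (2.51-fold), Wdfy1 (2.82-fold), Entpd4 (0.485-fold) and mt-Nd3 (0.308-fold) differed in knock-in relative to wild-type, so substrain and the Rad allele cannot be told apart in any difference below.

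Slc6a8, Ckb and Ckm, which encode the creatine transporter and both cytosolic creatine kinases, were lower in knock-in ventricles by 27.6%, 23.3% and 18.3%. The remaining 4 members did not pass the test: Ckmt2 was 10.2% lower and Mb 7.42% lower, and Ak1 was 12.6% and Gatm 20.8% higher in the fitted means. The 3 members that fell compare with 5.01% of all tested genes called as lower and 9.01% called in either direction (edgeR's quasi-likelihood test, adjusted p below 0.05). In 6 of the 7 members the CPM values of the genotypes did not overlap, 5 of them lower in knock-in and Ak1 higher. The same held for 29.4% of all tested genes, made up of 15.1% lower and 14.3% higher in knock-in. The median log2 fold change was -0.155 over the 7 members and 0.0036 over all tested genes.

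**Figure D1:**
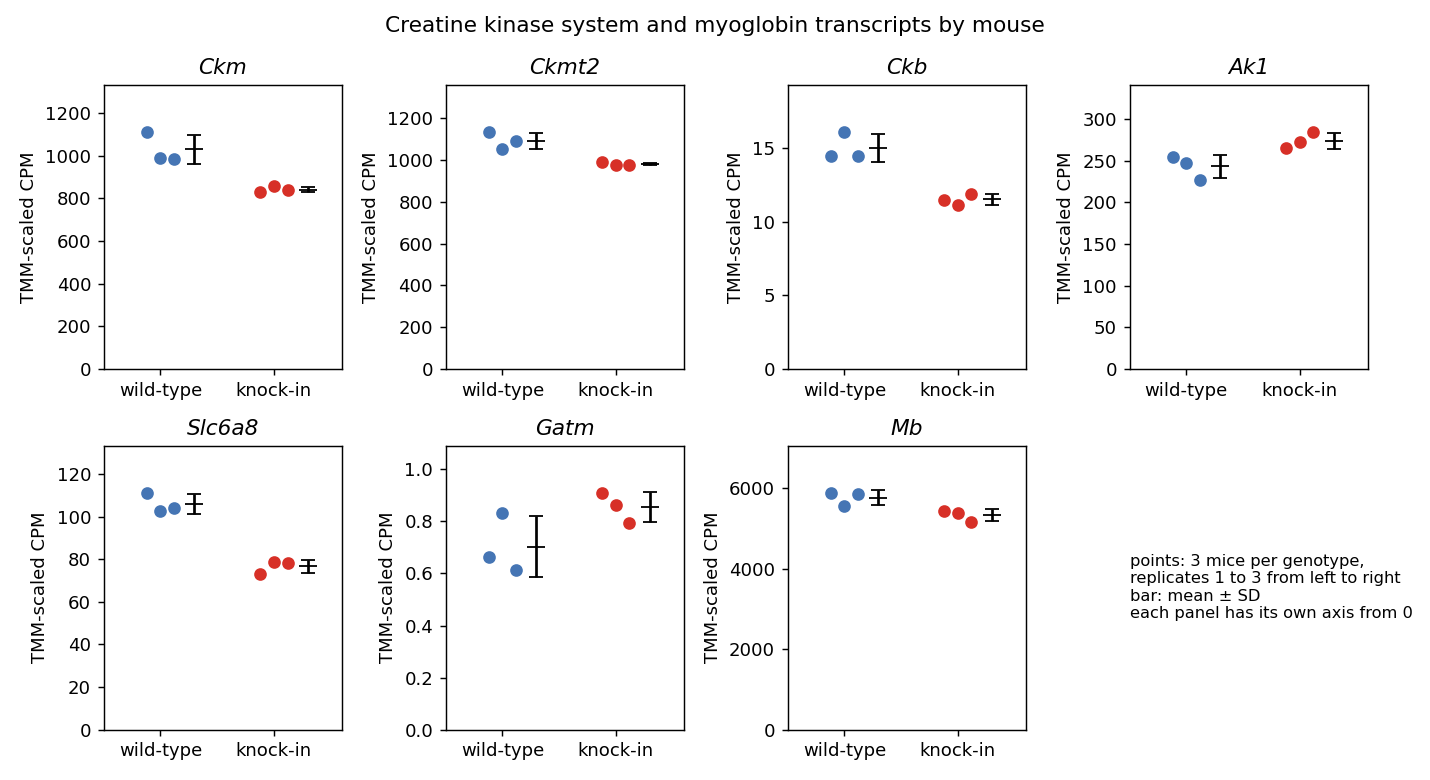
TMM-scaled CPM of each of the 7 genes in each mouse, with wild-type in blue, knock-in in red and bars for mean ± SD (n = 3), each panel on its own linear axis from 0. All knock-in values of Slc6a8, Ckb, Ckm, Ckmt2 and Mb lie below all wild-type values, those of Ak1 lie above, and those of Gatm overlap.

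Ckm, the muscle creatine kinase of the cytosol and the M-band, lies on the plus strand of chromosome 7 from 19404776 to 19422841 (GRCm38, GENCODE M21), and an antisense gene not analysed here overlaps 451 of its exon bases. Ckm came to 1111, 992 and 987 CPM in the wild-type mice and 831, 856 and 838 CPM in the knock-in mice, in the order of their replicate numbers here and below. The knock-in mice were close together, with an SD of 13.2 against 69.9 CPM in wild-type mice, where replicate 1 was the highest. The log2 fold change was -0.29 ± 0.05 (SE, edgeR adjusted p = 0.0103), equal to a fold of 0.817 with a 95% interval of 0.753 to 0.887. The call was lost without knock-in replicate 3 (-0.29, edgeR adjusted p = 0.0524).

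Ckb, the brain-type creatine kinase, is the minor cytosolic isoform of the adult heart and is also made by smooth muscle, endothelium and nerve. It lies on the minus strand of chromosome 12 from 111669361 to 111672338. Wild-type values were 14.5, 16.1 and 14.5 CPM and knock-in values 11.5, 11.1 and 11.9 CPM, from 371 to 540 counts per library. All 3 knock-in mice were below the lowest wild-type mouse, and the difference was larger than the spread within either genotype (0.931 and 0.401 CPM, SD, n = 3). The log2 fold change was -0.38 ± 0.07 (edgeR adjusted p = 0.0108), and Ckb was called in 6 of 6 leave-one-out fits. A sequence related to Ckb, Gm12892, shares 96.8% identity over 1149 bases and was listed with 0 counts in all libraries, so the split of reads between the pair is uncertain.

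Ckb is expressed outside cardiomyocytes, so markers of other cell types were read beside it, against a background of 5.01% of all tested genes called as lower. The 10 endothelial markers summed to 669 to 677 CPM in wild-type mice and 599 to 661 CPM in the knock-in mice, with 4 of 10 called as lower and 0 as higher. In leave-one-out fits 2 to 4 were lower, with 2 without wild-type replicate 3, knock-in replicate 2 or knock-in replicate 3, and 1 was higher without knock-in replicate 1. The 9 macrophage markers summed to 174 to 180 CPM in wild-type mice and 126 to 147 CPM in the knock-in mice, with 6 of 9 called as lower. This count was 3 without knock-in replicate 2, 2 without knock-in replicate 3 and 4 to 6 in the other leave-one-out fits. The 9 smooth muscle markers summed to 1515 to 1621 CPM in wild-type mice and 1358 to 1415 CPM in the knock-in mice, without overlap. Of these 9, 1 was called as lower, Des (960 against 827 CPM on average), which heart muscle also expresses. Des was called in 2 of 6 leave-one-out fits and in 8 of 9 other settings. Myocd was lower in knock-in but did not pass (edgeR adjusted p = 0.0650). The other smooth muscle markers without Des and Myocd, a subset taken after the values were seen, summed to 549 to 553 CPM in wild-type mice and 513 to 534 CPM in the knock-in mice, and 0 of 7 were called. The 10 neural and glial markers summed to 7.99 to 11.4 CPM in wild-type mice and 9.85 to 12.05 CPM in the knock-in mice, with overlapping ranges. Of 6 tested 1 rose, Dbh, the noradrenaline-synthesizing enzyme of sympathetic nerve (edgeR adjusted p = 0.0204, called in 4 of 6 leave-one-out fits). Over all tested genes 4% were called as higher. Log2 fold changes of the 6 tested neural and glial markers were above 0 in 4 and below 0 in 2. The nerve markers Th and Prph had at most 2 and 3 counts in any library and were not tested. The 9 fibroblast markers overlapped at 499 to 603 CPM in wild-type mice and 523 to 550 CPM in the knock-in mice. Of these 9, 1 was called as lower, Postn, with a call in 2 of 6 leave-one-out fits. The part of these cell types in the lower Ckb level was not tested. In tissue RNA fewer cells of a type and less RNA per cell cannot be told apart.

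Ckmt2, the sarcomeric mitochondrial creatine kinase, sits between the mitochondrial membranes and couples ATP export to phosphocreatine. It lies on the minus strand of chromosome 13 from 91853387 to 91876885. It came to 1133, 1056 and 1090 CPM in wild-type mice and 989, 978 and 977 CPM in the knock-in mice. The knock-in mice had an SD of 6.55 CPM, against 38.9 CPM in wild-type mice, and the ranges did not overlap. The log2 fold change of -0.155 ± 0.04 nevertheless missed the threshold (edgeR adjusted p = 0.0518). It passed in 6 of 9 other analysis settings, with the smallest adjusted p in DESeq2 (0.00967), and in 0 of 6 leave-one-out fits. The 95% interval of the fold ran from 0.840 to 0.960 before adjustment.

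The sequences before the start sites of the 3 creatine kinase genes are shown because these isoforms differ in where they act and in their values here. They come from RefSeq windows of 250 bases (GRCm38.p6), from which the bases annotated as exon were removed, 69 for Ckm and 38 for Ckmt2. They lie at chr7:19410844-19411024 on the plus strand for Ckm, chr12:111672339-111672588 on the minus strand for Ckb and chr13:91876924-91877135 on the minus strand for Ckmt2. Capitals mark matches to the E-boxes CAGCTG and CACCTG, the MEF2 site and the TATA box TATAAA.
Ckm: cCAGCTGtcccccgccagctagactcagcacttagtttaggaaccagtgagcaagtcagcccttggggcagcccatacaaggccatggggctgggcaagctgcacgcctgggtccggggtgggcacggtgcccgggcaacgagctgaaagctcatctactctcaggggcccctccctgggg
Ckb: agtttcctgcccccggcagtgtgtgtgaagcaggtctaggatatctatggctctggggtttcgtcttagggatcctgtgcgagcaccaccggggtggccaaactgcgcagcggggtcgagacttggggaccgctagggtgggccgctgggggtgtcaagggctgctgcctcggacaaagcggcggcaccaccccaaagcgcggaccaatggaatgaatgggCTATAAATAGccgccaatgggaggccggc
Ckmt2: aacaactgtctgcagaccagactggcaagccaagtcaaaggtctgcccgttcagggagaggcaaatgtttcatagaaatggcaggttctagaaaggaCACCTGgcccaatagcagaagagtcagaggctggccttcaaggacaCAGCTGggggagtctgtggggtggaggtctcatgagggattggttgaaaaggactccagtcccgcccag

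The letters differ among the isoforms. Ckm and Ckmt2 each hold 1 CAGCTG, the E-box form bound by muscle regulatory factors, and Ckmt2 also holds 1 CACCTG. Of these factors, Myod1 had at most 3 counts in any library, and Myog, Myf5 and Myf6 had 0 in all. On both strands, CAGCTG is present in 13.0% and CACCTG in 17.2% of the 32851 250-base windows in the RefSeq promoter table. Ckb holds a MEF2 site from base -29 to base -20 that overlaps its TATAAA from -28 to -23, so the letters serve both patterns. The MEF2 pattern occurs in 0.508% and TATAAA in 12.4% of all windows. Only the exact letters TATAAA were searched. The bases removed from the Ckm window hold tatataa, which this pattern does not match, so no match there does not show that Ckm lacks a similar element. No window of the 3 genes, over its full 250 bases, matched the CArG box, the ERR site AAGGTCA or the GATA site AGATAA on either strand, and 1.47%, 4.08% and 9.99% of all windows did. These matches are letters in a window and carry no measurement of binding.

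For creatine supply, transcripts of the transporter and of the synthesis enzymes were counted, and creatine itself was not measured. Slc6a8, the sodium- and chloride-dependent creatine transporter of the plasma membrane, lies on the plus strand of the X chromosome from 73673150 to 73682502. It came to 111, 102 and 104 CPM in wild-type mice and 73.2, 78.8 and 78.0 CPM in the knock-in mice. The lowest wild-type mouse stood 23.7 CPM above the highest knock-in mouse. The log2 fold change was -0.47 ± 0.05 (edgeR adjusted p = 0.00082), the 33rd smallest p among all tested genes. The fold was 0.724 with a 95% interval of 0.672 to 0.781, and Slc6a8 was called in all 6 leave-one-out fits and in all 9 other settings.

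Gatm, the amidinotransferase that makes the creatine precursor guanidinoacetate, lies on chromosome 2 from 122594467 to 122611303. It had 17, 28 and 20 counts in wild-type and 30, 30 and 32 counts in knock-in, or 0.662, 0.834 and 0.614 CPM against 0.909, 0.864 and 0.793 CPM. The ranges overlapped, and a log2 fold change of 0.27 ± 0.25 did not pass (edgeR adjusted p = 0.558). Its 95% interval of the fold, 0.818 to 1.78, allows changes in either direction at this depth. Gamt, the methyltransferase that completes creatine, stood at 1.54 ± 0.131 CPM in wild-type mice and 1.58 ± 0.308 CPM in the knock-in mice (SD, n = 3 each, edgeR adjusted p = 0.944). Ckmt1, the ubiquitous mitochondrial creatine kinase, had 0 to 6 counts per library and was not tested.

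Ak1, the cytosolic adenylate kinase of muscle, converts pairs of ADP molecules into ATP and AMP. It lies on the plus strand of chromosome 2 from 32621758 to 32635058. It came to 255, 248 and 227 CPM in wild-type mice and 265, 272 and 284 CPM in the knock-in mice. Every knock-in mouse was above every wild-type mouse, with a gap of 10.4 CPM between the nearest mice. The log2 fold change of 0.17 ± 0.05 did not pass (edgeR adjusted p = 0.0709). Ak1 passed in 4 of 9 other settings and in 0 of 6 leave-one-out fits, and with library size alone as the scaling its log2 fold change was 0.09 (edgeR adjusted p = 0.506).

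Mb, myoglobin, lies on the minus strand of chromosome 15 from 77015487 to 77050670, and its longest protein-coding transcript covers 1104 bases in 3 exons. An antisense gene not analysed here overlaps 412 of its exon bases. By mean CPM it ranked 5th among tested genes that are not encoded in mitochondria, and it took 1.13% to 1.32% of the counts outside the mitochondrial genome. It came to 5884, 5557 and 5856 CPM in wild-type mice and 5447, 5392 and 5175 CPM in the knock-in mice. The nearest mice of the genotypes, wild-type replicate 2 and knock-in replicate 1, were 110.4 CPM apart, less than the SD within either genotype (181 and 144 CPM). The log2 fold change of -0.11 ± 0.04 did not pass (edgeR adjusted p = 0.141), and the 95% interval of the fold was 0.866 to 0.990. It passed with library size alone (-0.19, edgeR adjusted p = 0.0349), a scaling that moved the median of all genes by -0.082.

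**Figure D2:**
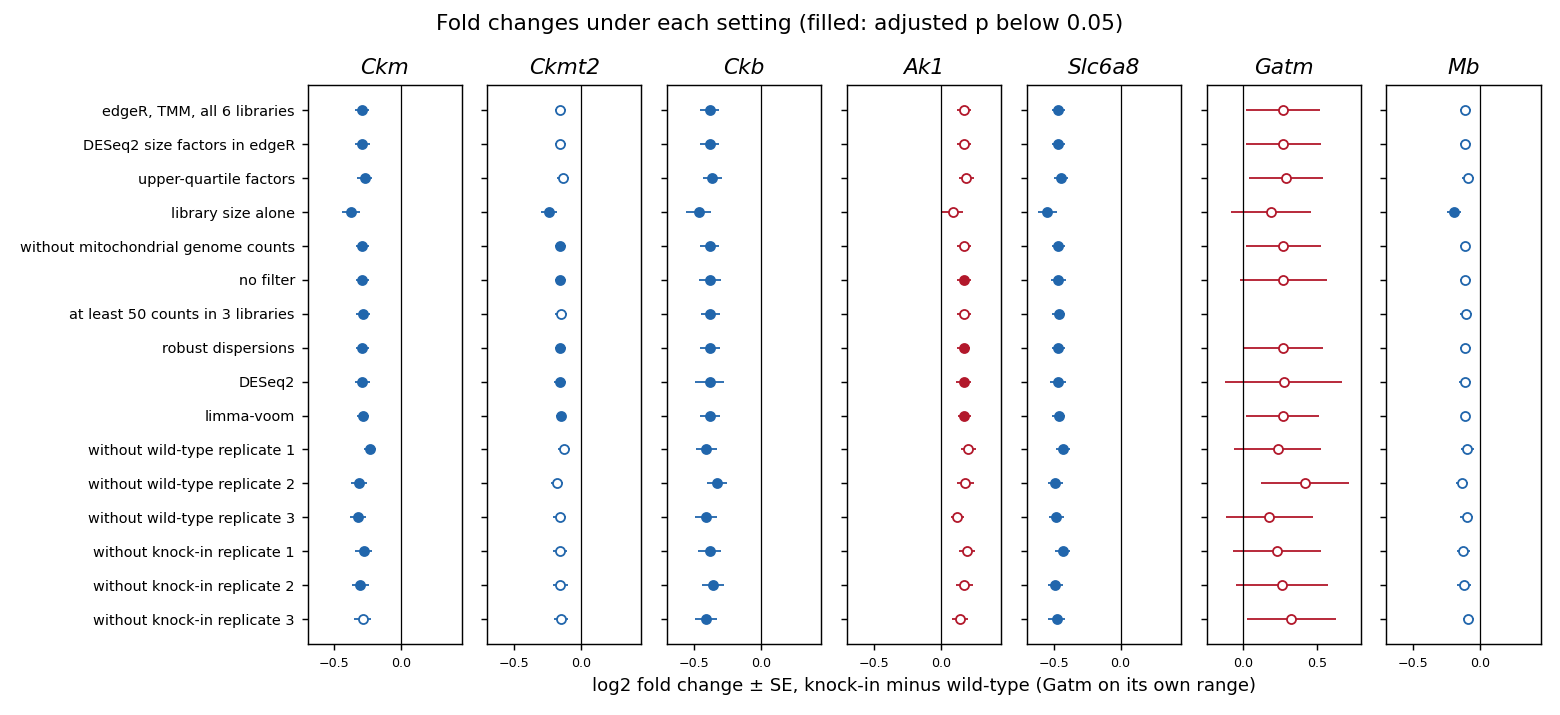
Log2 fold change ± SE of each member under the analysis of all 6 libraries with edgeR and TMM and under 15 other settings, with filled points for an adjusted p below 0.05. Slc6a8 and Ckb are filled in every row and Ckm in every row but 1, Ckmt2 is filled in 6 rows, Ak1 in 4 and Mb in 1. No point changes sign between rows. SE bars of Gatm cross 0 in some rows, as with library size alone (0.188 ± 0.273). Gatm has no point under the filter of 50 counts.

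Levels of different genes were compared per kilobase (kb) of the longest protein-coding transcript in GENCODE M21. In wild-type the order was Mb (5222 ± 164 CPM per kb), Ckmt2 (735 ± 26.2), Ckm (376 ± 25.5), Ak1 (117 ± 6.84), Slc6a8 (26.7 ± 1.15), Ckb (10.2 ± 0.632) and Gatm (0.295 ± 0.0484). The knock-in order was the same, and neighbours in it differed by more than their spread. The place of Ckm rests on the length chosen for it. Its longest transcript of 2742 bases runs 1258 bases past the RefSeq end of the gene, and between the RefSeq ends it has 1415 bases. With that length, chosen after the annotation was seen, Ckm stood at 728 ± 49.4 CPM per kb in wild-type, which does not differ from Ckmt2 beyond the spread, and at 595 ± 9.34 in knock-in, below Ckmt2 at 661 ± 4.41. Gatm moved from 0.295 to 0.299 CPM per kb in wild-type, and the lengths of the others stayed as they were.

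**Figure D3:**
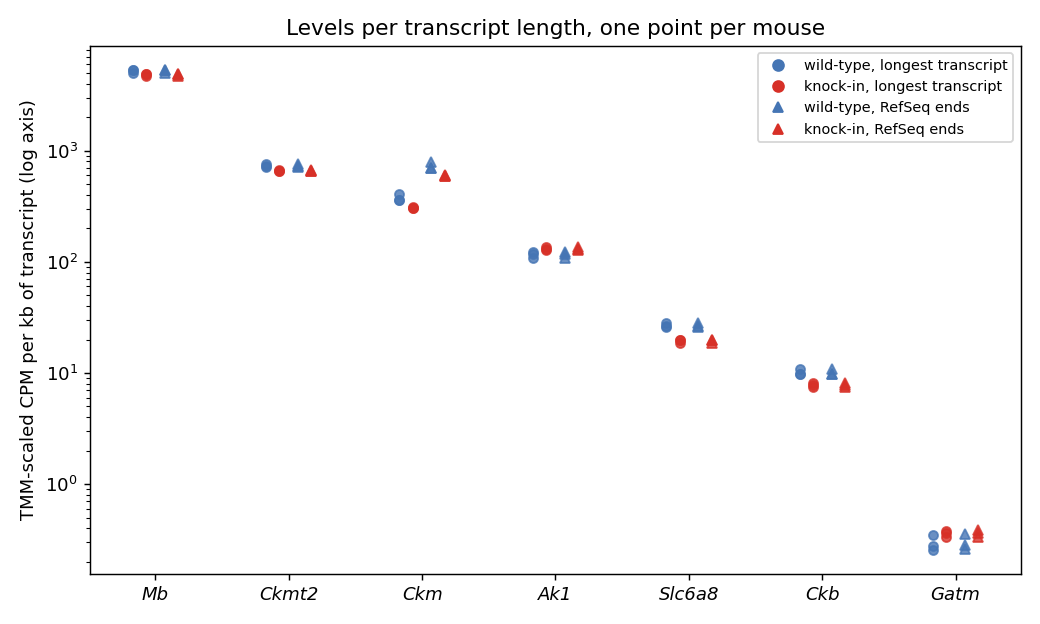
TMM-scaled CPM per kb of transcript, on a log axis, for each mouse (wild-type blue, knock-in red). Circles use the length of the longest protein-coding transcript and triangles the length of its part between the RefSeq ends. The counts are those of the whole gene in both. Mb is highest and Gatm lowest under both, and only Ckm shifts visibly between them.

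Within the creatine kinase transcripts, the mitochondrial isoform took a larger share in knock-in. Its own level was not higher there, with Ckmt2 10.2% lower (not passing the test) and Ckm 18.3% lower. Per length, Ckmt2 made up 64.8%, 65.6% and 66.5% of the 3 isoforms in wild-type and 68.2%, 67.3% and 67.7% in knock-in. Ckm made up 34.4%, 33.4% and 32.6% in wild-type and 31.0%, 31.9% and 31.5% in knock-in, so that neither share overlapped between genotypes. Both are parts of the same sum, so these are not separate results. Ckb was between 0.772% and 1.01% in all mice. With the RefSeq ends the share of Ckmt2 was 49.9% ± 0.967 in wild-type and 52.3% ± 0.507 in knock-in (SD, n = 3 each). The summed level of the 3 isoforms was 1121 ± 49.8 CPM per kb in wild-type and 975 ± 3.51 in knock-in. The ratio of Ckm to Ak1, per length, was 3.05 to 3.31 in wild-type and 2.24 to 2.39 in knock-in. These shares, sums and ratios are descriptions of the members and were not tested.

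The wider phosphotransfer network was read from a list of 30 symbols that covers other adenylate kinases, nucleoside diphosphate kinases, AMP deaminases, enzymes of the purine nucleotide cycle, adenine nucleotide carriers and the outer membrane channels. Of 22 tested genes 2 fell, 0 rose and 20 did not pass, a share of calls close to the background of 9.01%, and the median log2 fold change was -0.05. Slc25a5, an ADP/ATP carrier of the inner mitochondrial membrane, came to 109, 101 and 105 CPM in wild-type mice and 94.7, 82.1 and 86.1 CPM in the knock-in mice (-0.26 ± 0.06, edgeR adjusted p = 0.0214). Ampd3, an AMP deaminase, came to 25.8, 25.4 and 25.9 CPM in wild-type mice and 22.6, 20.3 and 21.2 CPM in the knock-in mice (-0.27 ± 0.06, edgeR adjusted p = 0.0235). Neither held in most leave-one-out fits, with Slc25a5 called in 2 and Ampd3 in 1 of 6. Slc25a4, the main carrier of the heart, averaged 2105 ± 74.1 CPM in wild-type mice against 1944 ± 22.4 CPM in the knock-in mice and missed the threshold (edgeR adjusted p = 0.126). The outer membrane channels Vdac1, Vdac2 and Vdac3 also did not pass, with log2 fold changes of 0.05, -0.01 and 0.07.

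**Figure D4:**
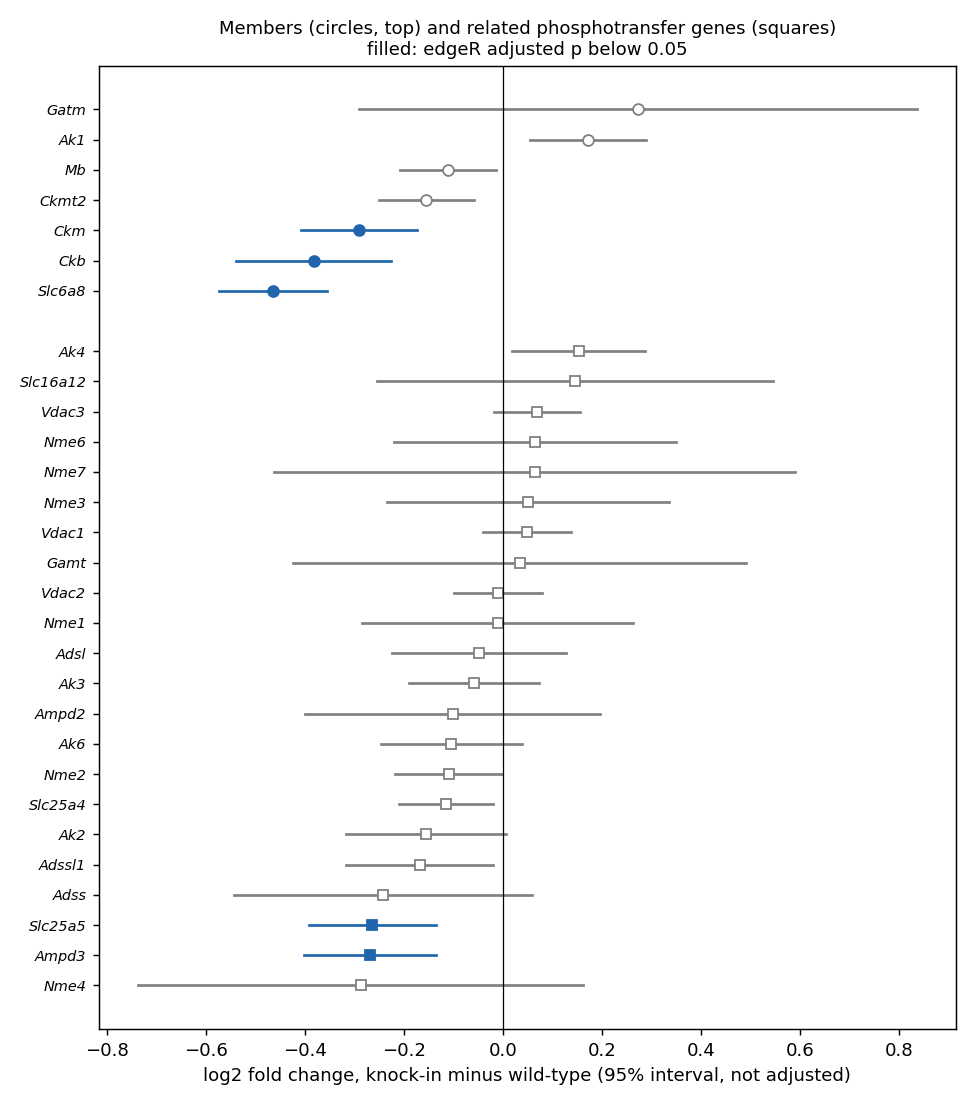
Log2 fold change with its unadjusted 95% interval for the 7 members (circles) and the 22 tested phosphotransfer genes (squares), filled where the edgeR adjusted p was below 0.05. Slc6a8, Ckb and Ckm among the members, and Ampd3 and Slc25a5 among the others, are filled, all on the lower side.

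AMP-activated kinase, which responds to the AMP that adenylate kinase forms, was read through 13 genes of its subunits and upstream kinases. Of these 1 rose, 0 fell and 12 did not pass, a share of calls near the background of 9.01%. Prkab1, a scaffolding beta subunit, rose from 17.8 ± 0.468 to 21.9 ± 1.57 CPM (edgeR adjusted p = 0.0252), with a call in 1 of 6 leave-one-out fits. Prkag2, a gamma subunit, had a log2 fold change of 0.24 ± 0.07 (edgeR adjusted p = 0.0571). The catalytic subunit genes Prkaa1 and Prkaa2 had log2 fold changes of 0.05 and -0.08 and did not pass.

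Genes with the most similar profile over the 6 libraries were found for each member that fell, as the smallest root-mean-square difference of centred log2-CPM among tested genes with a mean of at least 10 CPM. For Ckm these were Atp5g1, which encodes a c subunit of ATP synthase (0.0208), Coq10a, a coenzyme Q-binding protein of mitochondria (0.0297), and Inpp5a (0.030). For Ckb they were Dchs1, a protocadherin (0.0282), Itga5, the integrin alpha subunit of the fibronectin receptor (0.0318), and Sec14l1 (0.0382). For Slc6a8 they were Prxl2b (0.031), Dmxl2 (0.0578) and the phospholipase gene Pla2g12a (0.0607). Atp5g1 came to 413, 381 and 367 CPM in wild-type mice and 318, 317 and 317 CPM in the knock-in mice. Chosen for their likeness, all 9 were lower in knock-in, so their direction is no further result.

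Skeletal muscle also makes Ckm, Ak1 and Mb in large amounts. The 13 skeletal muscle markers summed to 16.0 to 21.1 CPM in wild-type mice and 16.9 to 28.4 CPM in the knock-in mice, with overlapping ranges, and 9 of them had too few counts to be tested. The fast myosin gene Myh4 had at most 2 counts and Myh2 at most 1 in any library. Of the 4 tested markers 1 was called as higher, Casq1, against 4% of all tested genes. Casq1 rose from 3.12, 6.35 and 3.53 CPM in the wild-type mice to 10.9, 6.11 and 12.5 CPM in the knock-in mice. Its ranges overlapped (edgeR adjusted p = 0.0327, called in 2 of 6 leave-one-out fits). Haemoglobin and other erythroid transcripts varied widely between mice, from 585 to 2226 CPM in wild-type mice and from 602 to 5301 CPM in the knock-in mice. Of 6 tested erythroid markers 0 were called, against 9.01% of all tested genes. Their log2 fold changes were above 0 in 6 and below 0 in 0, so the lack of calls does not show equal levels.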

How the data were processed

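The deposited table holds raw estimated counts per gene symbol, taken as made by the authors with kallisto, since the submitters' processing notes name kallisto 0.44.0, bcl2fastq 2.19 and GRCm38. All values were whole, and how they were rounded, summed to symbols or assigned by strand is not given in the sources used here. Libraries came from column-purified, DNase-treated RNA and a stranded total RNA kit, per the labels' protocols. Overlapping antisense genes are annotated at Ckm, Ckmt2 and Mb and were not separated. Libraries of the same genotype were compared in pairs to look for copies. All pairs differed by more than sampling noise (chi-square per degree of freedom 7.98 or more), so none was dropped as a copy and all 6 were kept. The comparison did not address library quality or outliers.

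Counts were tested for genotype with edgeR 4.0.16 in R 4.3.3 (filterByExpr, TMM, glmQLFit and glmQLFTest, two-sided, no covariate) on all 13485 genes passing the filter, with Benjamini-Hochberg adjustment over these and calls at an adjusted p below 0.05. SE is that of the log2 fold change, computed as its absolute value divided by the root of F. CPM values are TMM-scaled counts. The fit was tested on simulated data.

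Alternatives were DESeq2 1.42.0, limma-voom (limma 3.58.1), other scalings, filters and dispersions, exclusion of mitochondrial genome counts and of each library in turn. Lengths come from GENCODE M21 and promoter sequences from RefSeq (GRCm38.p6), with 6 of 7 members matched and Slc6a8 not. Named genes are the members, up to 6 called genes of each list by p or otherwise those of smallest p, Gamt, Ckmt1, Rrad, substrain genes and the 3 nearest profiles of each called member. Others are examples named after their values were seen. Members and lists were chosen with earlier results of these data known.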

Additional observations from a re-analysis of the deposited data

How the results depend on the processing

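The fitted fold change of no member changed sign under any setting, though the SE of Gatm reached across 0 in some. Slc6a8 and Ckb kept their call in all 15 other settings, and Ckm lost it without knock-in replicate 3, with a log2 fold change of -0.32 to -0.23 over the leave-one-out fits. Ckmt2 passed with library size alone (-0.24), without mitochondrial genome counts (-0.16), with no filter (-0.15), robust dispersions (-0.155), DESeq2 (-0.15) and limma-voom (-0.15). Ak1 passed with no filter, robust dispersions and DESeq2 (0.17 each) and limma-voom (0.175), and Mb with library size alone (-0.19). Gatm could not be fitted under the filter of 50 counts. The number of genes called was 1215. In leave-one-out fits it ranged from 338 without knock-in replicate 3 to 1378 without knock-in replicate 1, and was 485, 672, 746 and 775 without wild-type replicate 3, knock-in replicate 2, wild-type replicate 2 and wild-type replicate 1. In the settings with all libraries it ran from 1142 with DESeq2 to 1591 with no filter. With library size alone 227 genes were higher and 1177 lower, against 540 and 675 with TMM. Each leave-one-out fit held 1 mouse fewer, and the cause of these changes was not tested.

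Over the union of annotated exons, wild-type levels were 5.19 CPM per kb for Ckb, 93.8 for Ak1, 20.3 for Slc6a8, 0.234 for Gatm and 3864 for Mb, and the shares of Ckm, Ckmt2 and Ckb were 32.3%, 67.2% and 0.475% in wild-type and 30.3%, 69.3% and 0.417% in knock-in. With RefSeq ends, chosen after seeing the data, Ckm stood at 728 CPM per kb in wild-type, and the shares were 49.4%, 49.9% and 0.694% in wild-type and 47.1%, 52.3% and 0.62% in knock-in. No paired analysis was possible because the labels match no mice between the genotypes. Equal replicate numbers do not mark pairs. At 17 to 32 counts per library the depth limits Gatm.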

Other observations

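Of 18 tested regulators of muscle genes in a list of 23, 1 rose, 0 fell and 17 did not pass, a share of calls no higher than the 9.01% over all tested genes, with a median log2 fold change of -0.06. Mef2a, a MADS-box factor of muscle genes, measured 124, 140 and 134 CPM in wild-type mice and 153, 157 and 156 CPM in the knock-in mice (log2 fold change 0.23 ± 0.05, edgeR adjusted p = 0.0217), with a call in 2 of 6 leave-one-out fits. Gata4, a zinc-finger factor of cardiac genes, had a log2 fold change of 0.21 (edgeR adjusted p = 0.0545).

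Of 13 tested genes of haem metabolism and other globins 1 fell and 12 did not pass, a share of calls near the 9.01% over all tested genes. Hmox1, the inducible haem oxygenase that degrades haem, measured 4.05, 4.29 and 5.04 CPM in wild-type mice and 2.82, 2.45 and 2.33 CPM in the knock-in mice (log2 fold change -0.82 ± 0.14, edgeR adjusted p = 0.00808), with a call in 5 of 6 leave-one-out fits. Hmox1 is also abundant in macrophages, whose 9 markers had lower summed levels in knock-in, and their part in its level was not tested. Blvra, a biliverdin reductase, had a log2 fold change of -0.35 (edgeR adjusted p = 0.142). Cytoglobin, encoded by Cygb, averaged 33.1 ± 1.63 CPM in wild-type mice and 33.7 ± 2.26 CPM in the knock-in mice (SD, n = 3 each, edgeR adjusted p = 0.852), and neuroglobin, Ngb, had at most 2 counts.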
